A study of Homo sapiens with 60 samples.

Results

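The genes of the proteasome were followed across 20 groups of A549 cells, a human lung adenocarcinoma line. Members were the protein-coding genes of the count table whose symbol begins with PSMA, PSMB, PSMC, PSMD, PSME or PSMG, together with PSMF1 and POMP. The rule gave 51 of the 60675 genes listed, of which 19693 are protein-coding, and left out 51 further genes with such symbols that are not protein-coding. The members fall into 8 alpha and 8 beta subunits of the core particle, and 9 base and 8 lid subunits of the regulatory cap. A further 5 are grouped here as immunoproteasome genes: the catalytic subunits PSMB8, PSMB9 and PSMB10 and the interferon-inducible activator genes PSME1 and PSME2. There are also 8 assembly factors and 3 other activators or inhibitors. The remaining 2, PSMC3IP and PSME3IP1, carry a subunit's name but encode proteins that are not proteasome subunits. A low-count filter kept 49 members. PSMA8, the alpha subunit of the testis, had a count of 0 in all 60 libraries, and PSMB11, the beta subunit of the thymus, averaged 0.003 CPM, the usual unit of a count relative to the library's scaled total.

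The proteasome degrades proteins tagged with ubiquitin. Rings of alpha subunits gate a barrel whose beta subunits cut peptide bonds, and the cap binds ubiquitin, removes it and unfolds the substrate with a ring of ATPases. Cells exposed to interferon replace the catalytic beta subunits by immunoproteasome counterparts, which shape peptides for antigen presentation. Dedicated chaperones assemble core and cap, and the factor NFE2L1 raises transcription of subunit genes together when proteasome activity falls short.

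Cells received 10 µM wortmannin, an inhibitor of phosphoinositide 3-kinases and related kinases that the design text calls the positive control, or a vehicle of dimethyl sulfoxide, or the hot-water extract of 1 of 6 herbal drugs. The drugs were Liriopis seu Ophiopogonis Tuber, Schisandrae Fructus, Longan Arillus, Zizyphi Semen, Polygalae Radix and Aucklandiae Radix, each at 500, 100 and 20 µg/mL per the labels. Exposure lasted 24 h, each group has 3 libraries, and groups are named below by the first word of the drug and the dose. The vehicle is 0.1% dimethyl sulfoxide in the labels and 2% in the design text, no label gives a solvent level for the other groups, and the design text says that doses were lowered where an extract was toxic, so solvent and doses are uncertain. Whether the 3 libraries of a group were grown as separate cultures is not stated, and each p-value therefore reflects only how far these libraries spread, which may be technical.

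Depth was 17.7 to 30.6 M counts per library. The Pearson correlation of log2 values between replicates was 0.993 to 0.998. A group of 5 libraries stood apart from their replicates by a lower correlation: replicate 2 of Liriopis 20, replicate 3 of Liriopis 500 and all 3 of Polygalae 20. The coefficient of variation of a member over 3 replicates had a median of 10.2% in Polygalae 20 and 7.93% in Liriopis 500, against 2.54% in the vehicle, 2.15% with wortmannin and at most 5.14% in the other groups. Library names put the vehicle, wortmannin and 3 pairs of extracts in separate sets, so in a comparison with the vehicle the set and the treatment cannot be told apart. The summed level of 7 genes typical of A549 cells was 10914 to 14811 CPM in all libraries, that of 3 endothelial markers at most 0.394 CPM and that of 4 fibroblast markers 22.0 to 40.1 CPM (33.3 to 33.9 CPM in the vehicle, 31.1 to 32.2 CPM with wortmannin and 22.0 to 29.1 CPM in Polygalae 500). The summed level of 4 blood cell markers, almost all of it CD68, was 11.5 to 12.3 CPM in the vehicle, 15.9 to 19.3 CPM with wortmannin and 21.4 to 23.9 CPM in Polygalae 500, and the part of these markers in the results was not tested. In bulk RNA, fewer cells of a kind and less RNA per cell cannot be told apart.

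In vehicle-treated cells the constitutive genes were the abundant ones. Per kilobase of principal transcript, the 31 tested core and cap genes ran from 21.0 CPM for PSMA5 to 200 ± 3.7 CPM (SD, n = 3) for PSMB6, the beta subunit with caspase-like activity, with a median of 84.9 CPM. PSMB5, the subunit with chymotrypsin-like activity, stood at 106 ± 1.3 CPM per kilobase. The 3 catalytic immunoproteasome genes were lower: 4.10 ± 0.32 for PSMB8, 5.65 ± 0.79 for PSMB9 and 6.27 ± 0.37 for PSMB10 on the same scale. These values place them below every tested core and cap gene. PSME1 and PSME2, which form an activator ring that docks on the core, reached 49 ± 2.2 and 44.7 ± 1.3. The assembly factors lay between 12.6 (PSMG4) and 59.5 (POMP). A level per kilobase rests on 1 annotated length per gene, so the order of genes that lie close together is uncertain.

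With wortmannin nearly every constitutive proteasome gene was lower. In the immunoproteasome class 2 genes were higher, the catalytic subunit gene PSMB8 and the activator gene PSME1. Against the vehicle, 43 of 49 members fell and 2 rose at an adjusted p under 0.05, while 37.4% of all 17368 genes changed, 19.4% falling and 18.0% rising. The median log2 difference over the members was -0.26, a level 16.6% lower, against a median of 0.01 over all genes. All 14 tested core genes fell (median -0.28, from -0.42 to -0.16), as did all 17 cap genes (median -0.31, from -0.46 to -0.09) and all 3 other activators or inhibitors (median -0.19). Of the assembly factors 7 of 8 fell (median -0.26), and of the immunoproteasome genes 2 of 5 rose and 0 fell (median 0.26). The differences were modest in size and close together, and the spread between replicates was small beside them: in all 43 members that fell, each wortmannin library lay below each vehicle library, a pattern found in 25.6% of all genes. In the 2 members that rose each wortmannin library lay above each vehicle library, as in 25.4% of all genes.

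The catalytic core showed this gene by gene. PSMB6 had 126, 126 and 130 CPM with wortmannin against 168, 174 and 170 CPM in the vehicle. The groups do not overlap, and the log2 difference was -0.42 ± 0.046 (SE; adjusted p = 3.57e-11). PSMB5 had 116, 114 and 118 CPM against 136, 139 and 137 CPM (-0.24 ± 0.057, adjusted p = 5.22e-04), again with no overlap. PSMB7, the subunit with trypsin-like activity, fell by 0.31 on the log2 scale. Among the structural alpha subunits, which form the gate and the docking face for the cap, PSMA4 fell most, from 235, 242 and 234 CPM to 179, 184 and 179 CPM (-0.39 ± 0.055, adjusted p = 7.43e-08). PSMB4 was the core gene that fell least (-0.16 ± 0.044, adjusted p = 0.00274).

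In the cap, PSMC3, an ATPase of the ring that unfolds substrates, had the largest fall of any member. Its level was 88.3, 85.7 and 83.9 CPM with wortmannin and 115, 120 and 120 CPM in the vehicle, a difference of -0.46 ± 0.052 (adjusted p = 1.39e-10), so the highest treated library stayed below the lowest vehicle library. PSMD11, a scaffold subunit of the lid, had 214, 215 and 216 CPM against 271, 287 and 285 CPM (-0.38 ± 0.040, adjusted p = 1.05e-11). PSMD14, the deubiquitinase of the lid, fell by 0.34, and the scaffolds PSMD1 and PSMD2 by 0.32 and 0.36 on the log2 scale. PSMD4, a ubiquitin receptor, had 106, 113 and 110 CPM against 125, 126 and 128 CPM (-0.20 ± 0.057, adjusted p = 0.00349). The ATPase PSMC4 changed least of the cap genes: 244, 237 and 243 CPM stood against 258, 260 and 253 CPM (-0.09 ± 0.030, adjusted p = 0.013).

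Assembly factors fell alongside the subunits they build in. PSMG1, a chaperone of the alpha ring, had 33.3, 32.3 and 33.6 CPM with wortmannin and 43.9, 45.0 and 42.3 CPM in the vehicle (-0.40 ± 0.052, adjusted p = 3.75e-09). POMP, which helps close the core particle and is then degraded by it, had 64.6, 61.7 and 64.8 CPM against 82.1, 76.1 and 79.3 CPM (-0.31 ± 0.059, adjusted p = 2.16e-05). Neither gene's groups overlap. Of the chaperones of the cap base, PSMD10 fell by 0.37, PSMD9 by 0.28 and PSMD5 by 0.14 on the log2 scale. PSMG4 was the exception, with 10.5, 8.27 and 9.31 CPM against 9.70, 11.1 and 10.8 CPM, overlapping groups and an adjusted p of 0.102. Among the other regulators, PSME3, a nuclear activator, fell by 0.31 and PSME4, an activator studied in spermatogenesis and DNA repair, by 0.19. PSMF1, which binds the core particle and inhibits it in vitro, had 153, 164 and 157 CPM against 169, 183 and 168 CPM (-0.13 ± 0.034, adjusted p = 0.00121).

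The immunoproteasome genes took another course. PSMB8, which replaces PSMB5, had 7.54, 6.65 and 5.48 CPM with wortmannin against 4.69, 4.21 and 4.91 CPM in the vehicle. It rose by 0.51 ± 0.103 (adjusted p = 4.93e-05), with no overlap but with a wide spread among the treated libraries. PSME1 had 65.6, 63.4 and 63.6 CPM against 47.1, 51.5 and 49.4 CPM and rose by 0.38 ± 0.055 (adjusted p = 7.73e-08). Its partner PSME2 had 60.1, 59.8 and 61.9 CPM against 63.7, 64.0 and 60.8 CPM (-0.05 ± 0.053, adjusted p = 0.492), in overlapping groups. They lie close together on GRCh38, PSME1 at chr14:24136158-24138967 on the plus strand and PSME2 at chr14:24143362-24147570 on the minus strand. PSMB9, which replaces PSMB6, had 5.64, 4.69 and 5.44 CPM against 5.01, 4.46 and 3.78 CPM (0.26 ± 0.111, adjusted p = 0.063). PSMB10, which replaces PSMB7, had 9.59, 7.39 and 9.31 CPM against 7.11, 7.86 and 7.92 CPM (0.20 ± 0.118, adjusted p = 0.191). Both overlapped the vehicle and did not pass the test. PSMB10 had a lower mean in the vehicle than in any of the 19 other groups, and against the mean of the 18 extract groups its wortmannin difference was -0.07 (adjusted p = 0.522).

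**Figure D1:**
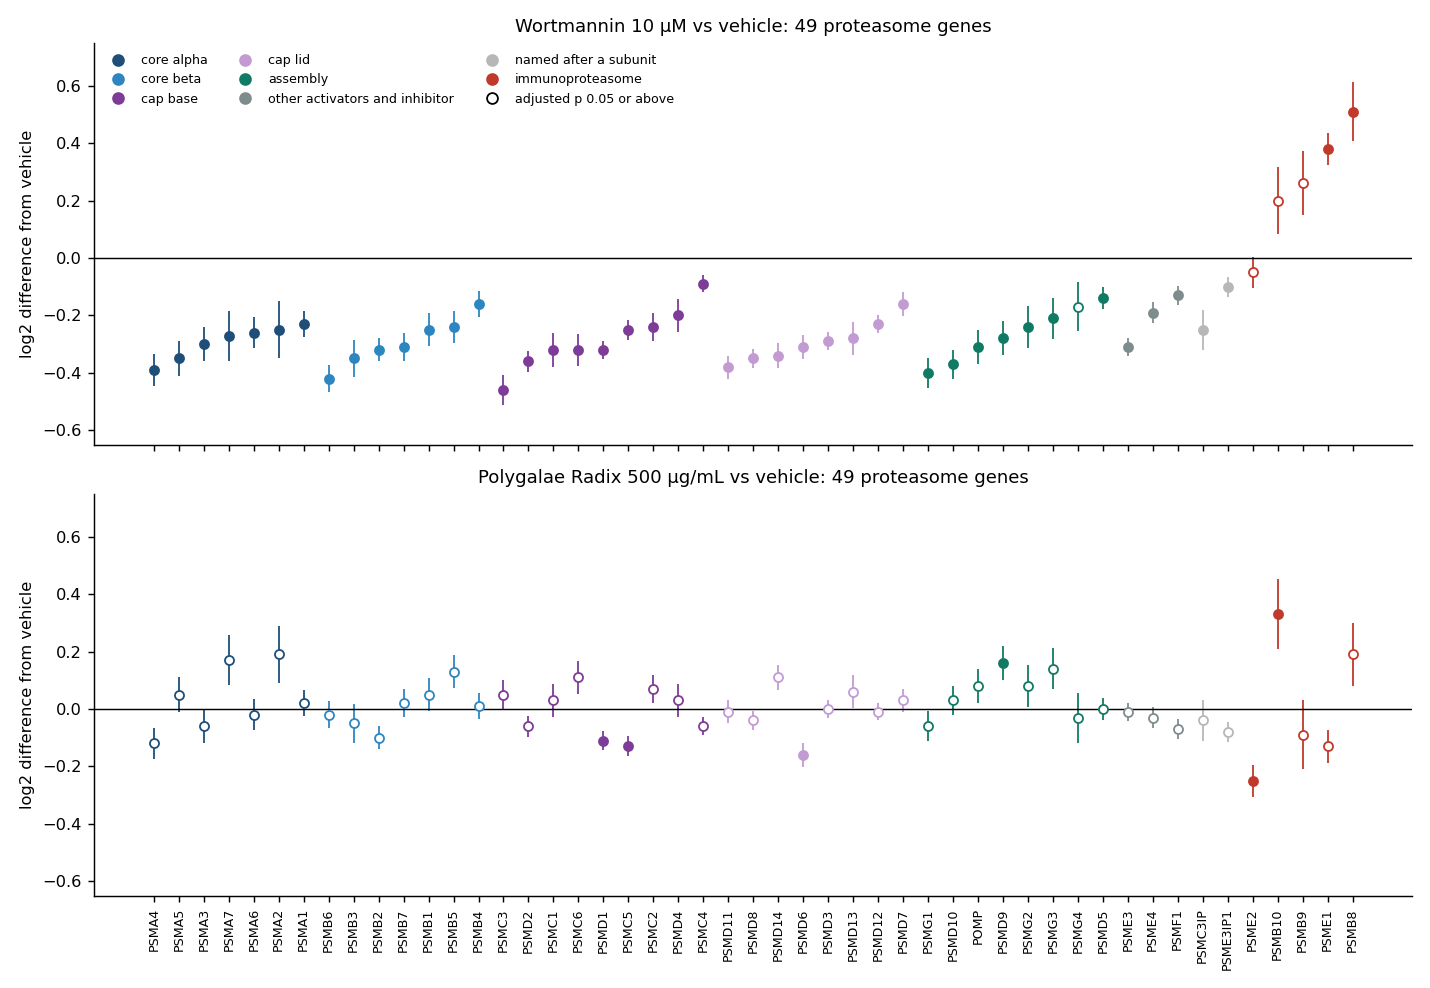
Log2 difference from the vehicle of the 49 tested members for wortmannin (upper panel) and for Polygalae Radix at 500 µg/mL (lower panel), grouped by class and ordered by the wortmannin value within each class. Points are model estimates and bars are ± 1 SE; filled points passed the adjusted p of 0.05. With wortmannin 43 filled points lie below 0 and only PSMB8 and PSME1 are filled above it, whereas in the lower panel 4 are filled below and 2 above.

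Setting each immunoproteasome gene against its constitutive counterpart within a library removes the scaling between libraries. PSMB8 amounted to 6.51, 5.82 and 4.64 counts per 100 counts of PSMB5 with wortmannin and to 3.45, 3.03 and 3.59 in the vehicle. PSMB9 amounted to 4.46, 3.72 and 4.19 per 100 of PSMB6 against 2.99, 2.57 and 2.23. PSMB10 amounted to 8.10, 6.15 and 8.02 per 100 of PSMB7 against 4.85, 5.52 and 5.25. In each of these ratios every wortmannin library exceeded every vehicle library, and the wortmannin mean was the highest of the 20 groups. Each ratio also carries the fall of its constitutive gene given above, and PSMB9 and PSMB10 did not pass by themselves. For PSMB10 per 100 of PSMB7 the vehicle mean was the lowest of the 20 groups. In that ratio replicate 1 of Polygalae 20, at 8.25, exceeded every wortmannin library. How often ratios of other genes separate in this way was not tested. PSME1 per 100 of PSME2 moved from 73.9, 80.5 and 81.2 to 109, 106 and 103. For each ratio the two-sided exact permutation test gave p = 0.1, the smallest value that 3 libraries against 3 allow. The log2 differences were 0.74, 0.67, 0.50 and 0.43 in the order given, with counts not divided by transcript length.

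Promoter stretches of 4 members with a marked change are shown because they let the sequence upstream of falling and rising genes be read side by side. They are the 200 bases from 250 to 51 before the RefSeq transcription start, in the GRCh38.p14 build, 5′ to 3′ on the strand of the gene. Capitals mark the core of the antioxidant response element, TGANNNNGC on either strand, the element to which NFE2L1 binds with a small MAF partner. PSMC3 (fell) is chr11:47426490-47426689 on the minus strand, PSMA4 (fell) is chr15:78540155-78540354 on the plus strand, PSMB8 (rose) is chr6:32844730-32844929 on the minus strand and PSME1 (rose) is chr14:24135944-24136143 on the plus strand.
PSMC3: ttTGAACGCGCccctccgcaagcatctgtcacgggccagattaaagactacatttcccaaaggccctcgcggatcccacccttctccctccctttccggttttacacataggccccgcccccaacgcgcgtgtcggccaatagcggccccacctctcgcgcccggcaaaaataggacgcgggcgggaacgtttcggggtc
PSMA4: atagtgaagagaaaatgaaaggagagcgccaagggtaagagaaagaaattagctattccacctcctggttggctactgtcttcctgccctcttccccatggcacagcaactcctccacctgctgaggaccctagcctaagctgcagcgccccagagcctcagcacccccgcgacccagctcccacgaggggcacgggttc
PSMB8: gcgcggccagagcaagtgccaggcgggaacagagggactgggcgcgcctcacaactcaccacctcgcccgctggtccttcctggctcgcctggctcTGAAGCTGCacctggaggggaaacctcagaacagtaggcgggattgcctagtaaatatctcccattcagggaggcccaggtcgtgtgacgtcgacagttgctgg
PSME1: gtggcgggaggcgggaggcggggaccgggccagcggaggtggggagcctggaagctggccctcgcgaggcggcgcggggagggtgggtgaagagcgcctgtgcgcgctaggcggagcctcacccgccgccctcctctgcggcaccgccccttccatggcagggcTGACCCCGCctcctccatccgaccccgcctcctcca

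The stretches of PSMC3, PSMB8 and PSME1 each hold 1 match and that of PSMA4 holds none. PSMA4 has 3 RefSeq windows and PSMB8 has 2, of which 1 is shown for each. The stretch shown for PSMB8 lies within the annotated span of PSMB9 on the other strand. The PSMA4 window at chr15:78540536-78540785 holds 1 match, and so does the other window of PSMB8. RefSeq promoters were found for 45 members in 56 windows. Of the 56 windows of 250 bases, 31 held the core, or 55.4%, against 35.2% of all 35116 such windows. The CCAAT box, on either strand, was in 41.1% of the windows and in 32.0% of all. A match is a description of letters and not a binding site.

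Among all 20 groups, the wortmannin mean was the lowest of the 20 for 43 members and the highest for 2, PSMB8 and PSME1, against 24.5% and 24.4% of all genes. For 36 members every wortmannin library lay below all other 57 libraries (9.73% of all genes), and for 0 members did every wortmannin library lie above them (7.87% of all genes). For PSME1 a single library reached into the wortmannin range, replicate 1 of Polygalae 20 with 63.6 CPM. For PSMB8 the lowest wortmannin library had 5.48 CPM, and libraries of several extract groups exceeded it. Among these were replicate 1 of Polygalae 20 (6.38 CPM), replicate 1 of Polygalae 100 (6.02 CPM) and replicate 3 of Schisandrae 100 (5.87 CPM). Taken as medians of a class within a library, relative to the vehicle mean, core genes were at -0.30 to -0.27 with wortmannin and at -0.08 to 0.36 in the other 57 libraries. Cap genes were at -0.32 to -0.29 against -0.07 to 0.16, and assembly factors at -0.32 to -0.25 against -0.08 to 0.30, so wortmannin and the other libraries do not overlap in these 3 classes. Immunoproteasome medians did overlap, at 0.09 to 0.35 against -0.13 to 0.38.

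**Figure D2:**
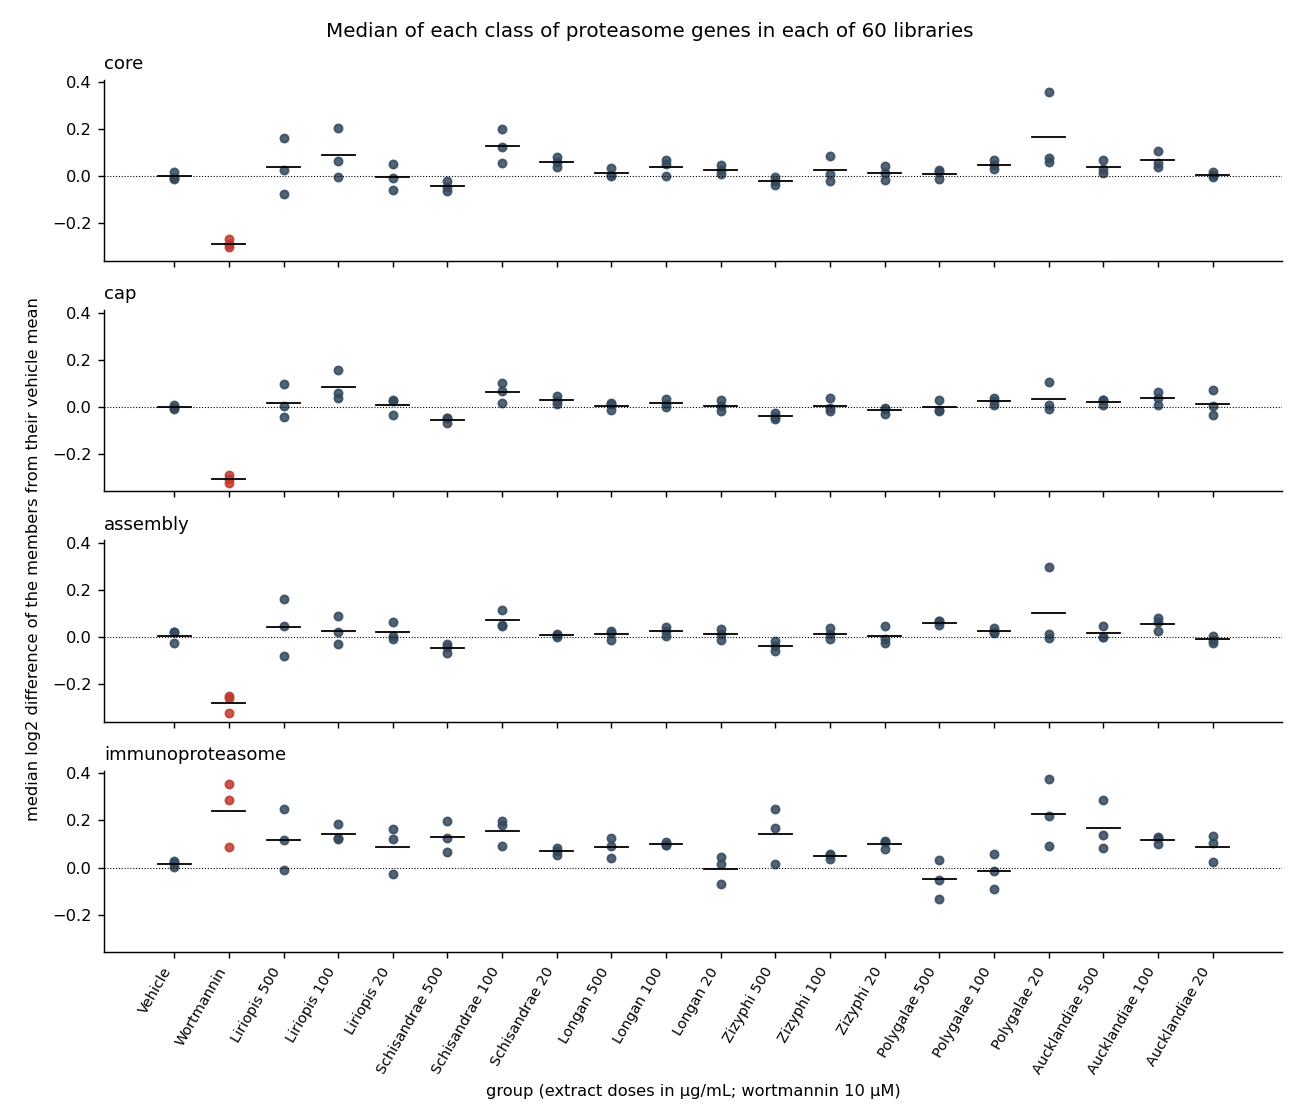
Median log2 difference of the members of 4 classes from their vehicle mean in each of the 60 libraries, by group, with a bar at the mean of each group and wortmannin in red. Core, cap and assembly medians of the 3 wortmannin libraries lie between -0.32 and -0.25, below all other libraries, whereas the immunoproteasome medians overlap those of the extracts and replicate 1 of Polygalae 20 is the highest core library at 0.36.

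Because wortmannin has a set of its own by the first part of its library names, the same fit was also read against groups of other sets. Against the mean of the 18 extract groups, 42 members fell and 2 rose, where 50.1% of all genes changed, and against the mean of the 6 extract groups at 20 µg/mL the counts were again 42 and 2, where 48.5% changed. All 44 of these calls were among the 45 made against the vehicle, and the call that was lost was that of PSME3IP1. The vehicle itself differed from the mean of the extract groups at 20 µg/mL in 1 member, PSMD2, which was lower (2.12% of all genes changed). Scaling by depth alone moved the median over all genes from 0.01 to 0.08 and that of the members from -0.26 to -0.19. In that setting 34 members fell and 3 rose, and 36 of the 45 calls held. The share of all genes called in that setting is not given. PSMC4, PSMF1, PSMD4 and PSMB4 were among those that did not pass, and PSMB9 passed at 0.32.

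Some members share sequence or a locus with other genes. The pseudogene PSMC1P1, a copy of the cap ATPase gene PSMC1, was at 11.9 CPM in the vehicle and 9.87 CPM with wortmannin (-0.26 ± 0.130), beside 163 and 130 CPM for PSMC1, so a small part of its reads could be divided wrongly. The antisense gene PSMA3-AS1 rose by 0.16 ± 0.062 (adjusted p = 0.0353) where PSMA3 fell by 0.30 on the log2 scale. PSMB8 (chr6:32840717-32844703, minus strand) and PSMB9 (chr6:32844136-32859585, plus strand) overlap each other. The strand setting of the counting is not known, and reads of either pair may not be separated.

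Many genes that work with the proteasome were also lower with wortmannin. Of 10 cofactors of the cap, 9 fell with wortmannin (median -0.21): ADRM1, a ubiquitin receptor of the cap, went from 125 to 92.8 CPM (-0.43 ± 0.040, adjusted p = 1.39e-13), AKIRIN2, which carries proteasomes into the nucleus, by -0.39, and the deubiquitinase UCHL5 by -0.35. Of 10 genes for NFE2L1, its processing and its partners, 6 fell and 0 rose (median -0.14). Among them the small MAF gene MAFK changed by -0.34 ± 0.035 (adjusted p = 4.92e-12), the segregase gene VCP by -0.23, and NFE2L1 itself went from 307 to 269 CPM (-0.19 ± 0.037, adjusted p = 3.64e-05). Of 13 tested genes for ubiquitin and its delivery, 8 fell and 0 rose (median -0.14), among them the shuttle factor RAD23B (-0.31), with UBQLN1 and UBQLN4 both at -0.20. These medians stand beside 0.01 for all genes.

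The interferon and antigen-processing list did not move that way. With wortmannin 6 of its 13 genes rose and 1 fell (median 0.09). ERAP1, which trims peptides in the endoplasmic reticulum, rose by 0.59 ± 0.053 (adjusted p = 8.41e-14), TAPBP, which helps load them, by 0.54 and NLRC5, an activator of class I genes, by 0.47. The peptide transporter gene TAP2 fell by 0.32 on the log2 scale. TAP1, its partner in the transporter, was at 21.1 CPM in the vehicle and 20.3 CPM with wortmannin (-0.05, adjusted p = 0.552).

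Polygalae at 500 µg/mL, which changed 19.9% of all genes, left the constitutive proteasome near the vehicle. Of 49 members 2 rose and 4 fell (10.4% and 9.48% of all genes), and the median was 0.00. Of the 14 core genes 0 passed the test by edgeR (medians 0.02 for alpha and 0.01 for beta subunits). Over all 49 members 14 differed at an unadjusted p under 0.05, and DESeq2 called 5. The shares of all genes beside these counts are not given, so neither is read as a result about the members. PSMB5 had 148, 151 and 151 CPM against 136, 139 and 137 CPM, higher in every library but with an adjusted p of 0.116. In the cap 3 genes fell by small amounts: the lid subunit PSMD6 (-0.16 ± 0.043, adjusted p = 0.00383), the ATPase PSMC5 (-0.13 ± 0.035, adjusted p = 0.00386) and the scaffold PSMD1 (-0.11 ± 0.032, adjusted p = 0.00969). The chaperone PSMD9 rose from 42.5, 44.7 and 43.4 CPM to 47.5, 50.5 and 48.0 CPM (0.16 ± 0.059, adjusted p = 0.0433). For PSMD4 (0.03), POMP (0.08), PSMG1 (-0.06) and PSMF1 (-0.07), adjusted p was between 0.161 and 0.799.

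Within the immunoproteasome class, PSME2 was lower and PSMB10 higher in Polygalae 500 than in the vehicle. PSME2 had 52.6, 52.2 and 53.8 CPM against 63.7, 64.0 and 60.8 CPM and fell by 0.25 ± 0.055 on the log2 scale (adjusted p = 4.76e-04), with no overlap. PSMB10 had 9.84, 9.91 and 9.10 CPM against 7.11, 7.86 and 7.92 CPM (0.33 ± 0.121, adjusted p = 0.0422), again with no overlap. The vehicle mean of PSMB10, 7.63 CPM, was the lowest of the 20 groups. The Polygalae 500 mean of 9.62 CPM was close to those of Longan 100 (9.94 CPM) and Aucklandiae 100 (9.49 CPM). PSME1 (-0.13 ± 0.058, adjusted p = 0.129), PSMB9 (-0.09, adjusted p = 0.679) and PSMB8 (0.19, adjusted p = 0.242) overlapped the vehicle. The calls of PSMB10 and PSMD9 were lost in 7 and 8 of the settings tried, and with upper-quartile scaling 0 members rose and 8 fell, while with depth scaling 4 rose and 2 fell. The shares of all genes under these scalings are not given. When any 1 of the 6 libraries was left out, 3 or 4 members passed, 0 or 1 of them upward, where 15.4% to 16.4% of all genes changed. Leaving out replicate 1 of Polygalae 500 gave 3.

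Of the accompanying lists, Polygalae 500 lowered ADRM1 by 0.11 and raised AKIRIN2 by 0.16, raised the small MAF genes MAFF (0.42 ± 0.105, adjusted p = 0.00204) and MAFG (0.29 ± 0.040, adjusted p = 2.97e-08) and lowered MAFK by 0.12 on the log2 scale. UBA1, the main ubiquitin-activating enzyme, fell from 374 to 280 CPM (-0.42 ± 0.031, adjusted p = 5.03e-17). UBA6, another activating enzyme, rose by 0.12 on the log2 scale.

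**Figure D3:**
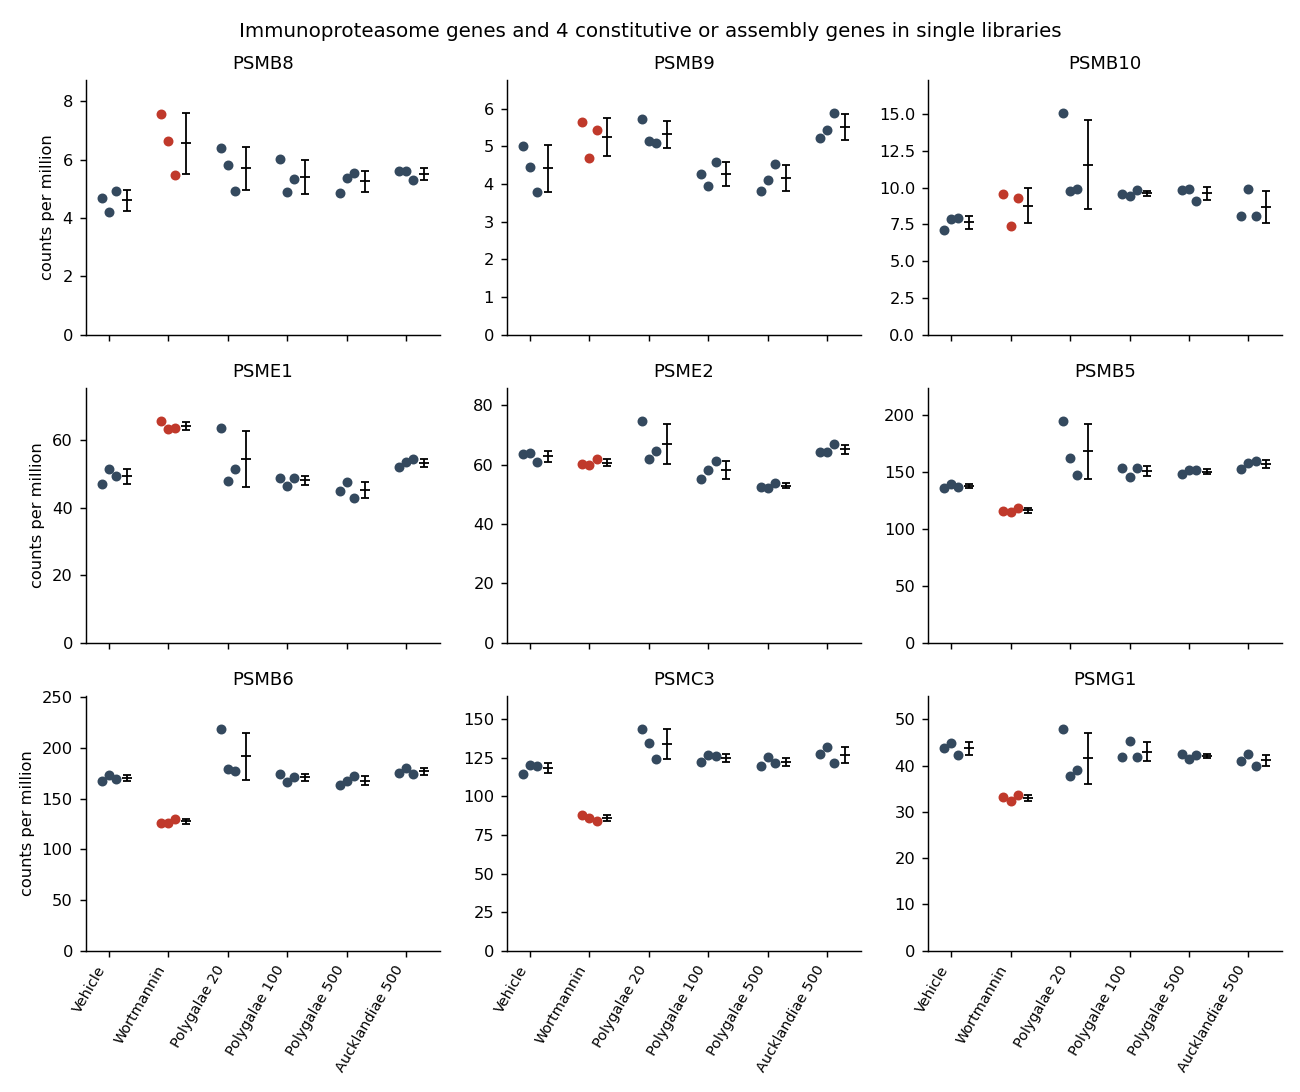
CPM of the 5 immunoproteasome genes and of PSMB5, PSMB6, PSMC3 and PSMG1 in single libraries of 6 groups (doses in µg/mL), with the mean ± SD of 3 libraries at the right of each set and wortmannin in red. PSMB6, PSMC3 and PSMG1 are lowest with wortmannin, PSMB8 and PSME1 highest, and PSME2 steps down from Polygalae 20 to 500 with means of 67.0, 58.2 and 52.8 CPM.

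The Polygalae doses share 1 library set, so their slope carries no set difference. Per 5-fold step of dose, 2 of 49 members fell and 0 rose, where 5.67% of 15901 genes changed and 2.44% fell. PSME2 fell by 0.17 ± 0.033 on the log2 scale per step (adjusted p = 0.00715), from 74.7, 61.7 and 64.5 CPM at 20 µg/mL through 55.3, 58.2 and 61.2 CPM to 52.6, 52.2 and 53.8 CPM at 500 µg/mL. The libraries of the 3 doses do not overlap, though 61.2 CPM at 100 µg/mL lies close to 61.7 CPM at 20 µg/mL. PSMD2, a scaffold of the cap base, fell by 0.10 ± 0.022 per step (adjusted p = 0.0176). PSMB9 (-0.18 ± 0.060, adjusted p = 0.0933) and PSME1 (-0.14 ± 0.043, adjusted p = 0.0866) had slopes of like size that did not pass. All 3 libraries at 20 µg/mL are among those that stood apart, and with 100 and 500 µg/mL alone edgeR called 0 members. At 100 µg/mL, 1 member differed from the vehicle: PSMC5 fell by 0.11 (adjusted p = 0.027), where 12.8% of all genes changed and 5.27% fell.

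After wortmannin, Polygalae at 20 µg/mL had the most members called against the vehicle in the main fit, and 1 library carried much of that count. Against the vehicle 14 members rose and 3 fell, where 12.1% of all genes changed (6.59% rose and 5.53% fell), among them 8 of the 14 core genes. PSMB10 had 15.1, 9.74 and 9.90 CPM against 7.11, 7.86 and 7.92 CPM (0.59 ± 0.117, adjusted p = 5.69e-04). PSMA2 had 128, 89.9 and 84.8 CPM against 71.9, 71.2 and 73.0 CPM (0.48 ± 0.097, adjusted p = 9.15e-04), and PSMB5 had 194, 162 and 147 CPM (0.29 ± 0.057, adjusted p = 5.89e-04). In each of these genes replicate 1 was above the other two, and no library overlapped the vehicle. PSME4 fell by 0.16 and PSME3IP1 by 0.12 on the log2 scale. Core genes had a median of 0.36 in replicate 1 against 0.06 and 0.08 in the others. Without replicate 1, 1 member rose and 4 fell, where 3.71% of all genes changed. Without replicate 3, 24 rose and 2 fell, where 19.1% changed. In a fit of the 6 libraries alone, whose own spread was then used, edgeR called 0 members and 0.0189% of all genes. DESeq2 on all libraries called 21 members, and 29 had an unadjusted p under 0.05. The shares of all genes beside the 21 and the 29 are not given, so neither is read as a result about the members. Short transcripts were higher: 23 members with a principal transcript under 1500 bases had a median of 0.16 against 0.04 in the 26 longer ones. This was not particular to Polygalae 20, as the medians were 0.12 against 0.05 in Schisandrae 100 and 0.06 against 0.00 in Schisandrae 20. The part of transcript length and of library quality in the Polygalae 20 calls was not tested.

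Set directly against each other, the largest dose of Polygalae and wortmannin differed in most members. In Polygalae 500, 40 members were higher and 4 lower than with wortmannin, where 44.0% of all genes differed, 23.9% being higher and 20.1% lower, and the median was 0.29. PSMC3 (0.51 ± 0.052, adjusted p = 6.49e-12) and PSMD14 (0.46 ± 0.044, adjusted p = 3.23e-13) were furthest above. All 4 that were lower are immunoproteasome genes: PSME1 at 45.0, 47.5 and 42.9 CPM against 65.6, 63.4 and 63.6 CPM (-0.51 ± 0.057, adjusted p = 6.52e-11), PSMB9 (-0.34), PSMB8 (-0.32) and PSME2 (-0.20). These 2 groups belong to different library sets.

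Polygalae and Aucklandiae belong to 1 set, and at 500 µg/mL 6 members were lower and 0 higher with Polygalae (15.2% of all genes differed and 7.04% were lower). Of the 6, 3 are immunoproteasome genes. PSME2 had 52.6, 52.2 and 53.8 CPM with Polygalae against 64.3, 64.2 and 66.9 CPM with Aucklandiae (-0.30 ± 0.055, adjusted p = 3.02e-05). PSME1 had 45.0, 47.5 and 42.9 CPM against 52.0, 53.4 and 54.3 CPM (-0.24 ± 0.058, adjusted p = 0.00223). PSMB9 had 3.82, 4.12 and 4.52 CPM against 5.22, 5.45 and 5.89 CPM (-0.41 ± 0.117, adjusted p = 0.00874). The groups do not overlap in any of these. The other 3 are cap base genes: PSMC5 (-0.15), PSMD2 (-0.15) and PSMD1 (-0.10). PSMB8 (-0.07, adjusted p = 0.757) and PSMB10 (0.14, adjusted p = 0.507) did not pass.

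In the remaining extract groups 0 to 3 members were called, and these counts moved with the setting. Without the libraries that stood apart, 10 members passed in Aucklandiae 100 (4.93% of all genes), 6 in Aucklandiae 500 (8.41%), 6 in Aucklandiae 20 (6.12%) and 11 in Schisandrae 100 (6.64%). With the 6 libraries compared alone, 14 passed in Aucklandiae 100 (6.37%), 11 in Aucklandiae 500 (11.6%) and 6 in Zizyphi 500 (6.25%). Aucklandiae raised PSMB5 at 500 µg/mL, from 136, 139 and 137 CPM to 153, 157 and 160 CPM (0.19 ± 0.057, adjusted p = 0.0416), and lowered PSME3IP1 by 0.11 (4.93% of all genes changed, 2.24% up and 2.69% down). The PSMB5 call was lost whichever of the 6 libraries was left out, and the PSME3IP1 call was kept only without replicate 2 of Aucklandiae 500. PSMD2 was higher in Aucklandiae 100 (0.13, adjusted p = 0.0328; 2.04% of all genes changed and 1.08% rose) and in Aucklandiae 20 (0.16, adjusted p = 0.00811; 2.99% changed and 1.38% rose), and PSMG1 (-0.19) and PSMB2 (-0.16) were lower in Aucklandiae 20 (1.61% fell). Zizyphi 500 lowered PSMD6 from 74.8, 68.2 and 70.0 CPM to 60.9, 63.5 and 64.1 CPM (-0.18 ± 0.042, adjusted p = 0.0136; 1.81% of all genes changed and 0.915% fell). Schisandrae 100 raised PSMD4 (0.21, adjusted p = 0.049) and PSMB4 (0.17, adjusted p = 0.0319), where 1.4% of all genes changed and 0.921% rose. Leaving out 1 library or scaling otherwise ended each of these calls in at least 1 setting.

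In the other 10 comparisons with the vehicle, edgeR called 0 members. These were all 3 doses of Longan (0.104%, 0.132% and 0.0173% of all genes changed at 500, 100 and 20 µg/mL) and of Liriopis (0.00576%, 0.00576% and 0.0864%), Zizyphi 100 and 20 (0.599% and 0.363%) and Schisandrae 500 and 20 (0.478% and 0.196%). At an unadjusted p under 0.05, 7, 8 and 7 members differed in Longan, 4, 15 and 0 in Liriopis, 11 and 10 in Zizyphi and 5 and 7 in Schisandrae. The share of all genes at an unadjusted p is not given for any count in this paragraph. Such counts are therefore not read as a result about the members. DESeq2 called 2 members in Liriopis 100, 1 in Zizyphi 20 and 0 in the others. The slopes of the other 5 extracts called 0 members by edgeR. For Liriopis 0.0314% of genes changed along the doses and 3 members had an unadjusted p under 0.05, for Schisandrae 0.0553% and 9, for Longan 0.0186% and 1, for Zizyphi 0.359% and 8, and for Aucklandiae 1.1% and 3. DESeq2 called 0 members in each. Within a library set, Zizyphi 500 and Longan 500 differed in 0 members (0.213% of all genes; 4 at an unadjusted p under 0.05, 0 by DESeq2), and Schisandrae 500 was below Liriopis 500 in 1, PSMD8 (-0.13 ± 0.032, adjusted p = 0.0347; 0.322% of all genes differed and 0.178% were lower). Without the libraries that stood apart that last count was 18 (4.21% of all genes), and with the 6 libraries alone it was 0 (0.0505%).

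**Figure D4:**
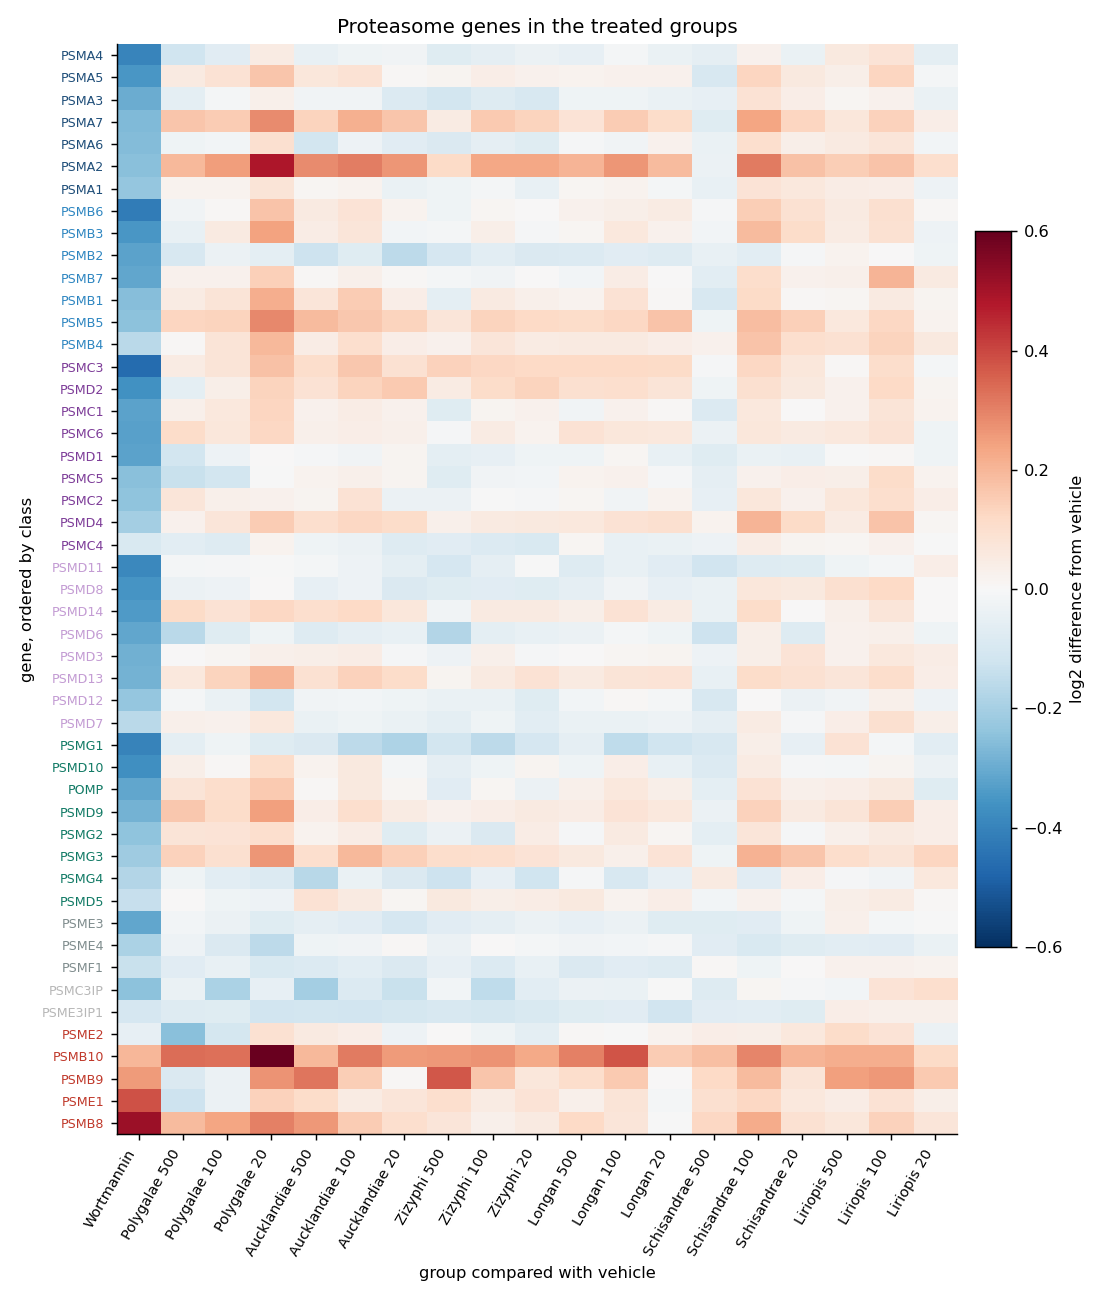
Log2 difference from the vehicle of the 49 tested members (rows, grouped by class and ordered by the wortmannin value) in the 19 treated groups (columns), from blue (lower) through white to red (higher). The wortmannin column is blue in all classes except the immunoproteasome, at the foot of the map, while extract columns are mostly pale and PSMB10 is above the vehicle in every column.

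Over the 19 other groups the highest group mean of a member was 1.08 to 1.52 times the lowest, from PSMD3 (1.08) to PSMB10 (1.52). PSMA2 (1.43) and PSMB9 (1.37) followed PSMB10. The highest means of PSMB10 (11.6 CPM) and PSMA2 (101 CPM) were those of Polygalae 20, whose libraries stood apart. Replicate 1 of that group had 15.1 CPM of PSMB10 against 9.74 and 9.90 CPM, and 128 CPM of PSMA2 against 89.9 and 84.8 CPM. Among subunits of the cap, PSMD11, PSMD1, PSMD3 and PSMD12 had 1.08 to 1.11 times.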

How the data were processed

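RNA-seq was done on 60 libraries of A549 cells with a strand-specific kit, per the labels' protocols. The authors deposited expected counts per gene from RSEM 1.3.3 after FastQC 0.11.9, Trim Galore 0.6.5 and STAR 2.7.3a on GRCh38, per the submitters' processing notes. Which annotation release was counted, and whether by strand, is not given in the sources. Of the values, 10.7% were not whole, and all were rounded. Groups were taken from the labels.

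Genes were kept with filterByExpr over the 20 groups (17368 genes), scaled by TMM and tested with edgeR 4.0.16 (robust quasi-likelihood, R 4.3.3, limma 3.58.1) on all 60 libraries with 40 residual degrees of freedom. Dose slopes were fitted on the 9 libraries of an extract, per 5-fold step of dose. P-values were adjusted over all genes by Benjamini-Hochberg, with a threshold of 0.05. CPM values use TMM library sizes. Changes are log2 differences ± SE, and the alternatives tried include DESeq2 1.42.0. The scripts were tested on simulated data. A library stood apart when its median correlation with its replicates lay more than 3 scaled median absolute deviations below the median of all 60. Positions and lengths come from GENCODE release 29, promoters from RefSeq. Median depth was 24.6 M counts. Scaling factors were 0.965 to 1.05, and replicate counts differed by more than sampling noise (chi-square per degree of freedom 2.03 to 25.3).

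Members, lists and comparisons were chosen with earlier results of these data known. The text names the 5 largest rises and 5 largest falls among passing members for wortmannin and Polygalae 500 and the 2 largest of each elsewhere. It always gives PSMB5, PSMB8, PSMB9, PSMB10, PSME1, PSME2, PSMF1, POMP, PSMG1 and PSMD4 for these main comparisons, and the 3 largest passing changes of each pathway list. Some genes of those lists that the rule would name are not reported here. PSMB4, PSMB7, PSMC4, PSMG4 and the other members named beyond this were chosen after their values were seen.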

Additional observations from a re-analysis of the deposited data

Results flagged for a closer look

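The differences below were tested directly between treated groups. Polygalae 500 and wortmannin differed in 44 members, where 44.0% of all genes differed. PSMC3 (0.51), PSMD14 (0.46), POMP (0.39), PSMB5 (0.37), PSMG1 (0.35) and PSMD4 (0.23) were higher in Polygalae 500 on the log2 scale. PSME1 (-0.51), PSMB9 (-0.34), PSMB8 (-0.32) and PSME2 (-0.20) were lower.

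Polygalae 500 and Aucklandiae 500, which share a library set, differed in 6 of 49 members, where 15.2% of all genes differed. Among them were PSMB9 (-0.41), PSME2 (-0.30), PSME1 (-0.24), PSMD2 (-0.15) and PSMD1 (-0.10), all lower in Polygalae 500. Schisandrae 500 and Liriopis 500 differed in 1 member, PSMD8 (-0.13), where 0.322% of all genes differed, and replicate 3 of Liriopis 500 is a library that stood apart.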

How the results depend on the processing

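Counts of members called with wortmannin were 42 to 46 when single libraries were left out, where 31.8% to 32.6% of all genes changed. In other settings the direction of 2 members that had not passed turned. PSMB10 was at -0.07 against the mean of the 18 extract groups and -0.06 against the 6 at 20 µg/mL, and PSME2 was at 0.02 with depth scaling only.

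Calls for the extracts depended on the setting, and the cause was not tested. Percentages in parentheses are the share of all genes tested that changed in the same fit. Without the libraries that stood apart, the counts were 13 for Polygalae 500 (23.2%), 8 for Polygalae 100 (16.2%), 6 for Aucklandiae 500 (8.41%), 10 for Aucklandiae 100 (4.93%), 6 for Aucklandiae 20 (6.12%), 2 for Zizyphi 100 (1.85%), 2 for Zizyphi 20 (1.76%), 2 for Longan 100 (1.1%), 1 for Longan 20 (0.467%), 11 for Schisandrae 100 (6.64%), 1 for Schisandrae 20 (0.98%), 1 for Liriopis 500 (0.934%), 3 for Liriopis 100 (0.387%), 18 for Schisandrae 500 against Liriopis 500 (4.21%) and 0 for the Polygalae slope (2.91%). With the 6 libraries compared alone, they were 14 for Polygalae 500 (26.2%), 8 for Polygalae 100 (18.7%), 0 for Polygalae 20 (0.0189%), 11 for Aucklandiae 500 (11.6%), 14 for Aucklandiae 100 (6.37%), 8 for Aucklandiae 20 (7.34%), 6 for Zizyphi 500 (6.25%), 4 for Zizyphi 100 (3.04%), 2 for Zizyphi 20 (2.07%), 5 for Longan 500 (3.31%), 5 for Longan 100 (3.51%), 4 for Longan 20 (3.36%), 1 for Schisandrae 500 (1.4%), 7 for Schisandrae 100 (2.36%), 2 for Schisandrae 20 (1.81%) and 0 for Schisandrae 500 against Liriopis 500 (0.0505%). Polygalae 20 could not be fitted without the libraries that stood apart.

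With no filter on low counts, the counts were 3 for Polygalae 100 (5.53%), 4 for Aucklandiae 100 (1.84%), 5 for Aucklandiae 20 (2.22%), 2 for Zizyphi 100 (1.05%), 1 for Zizyphi 20 (0.829%), 1 for Longan 500 (0.692%), 2 for Longan 100 (0.913%), 2 for Longan 20 (0.7%), 8 for Schisandrae 100 (2.32%), 1 for Schisandrae 20 (0.686%) and 2 for Liriopis 100 (0.592%). DESeq2 gave 2 for Polygalae 100 (12%), 4 for Aucklandiae 500 (5.2%), 3 for Aucklandiae 100 (2.83%), 1 for Zizyphi 20 (0.846%), 5 for Schisandrae 100 (3.17%), 2 for Liriopis 100 (0.173%) and 3 for Schisandrae 500 against Liriopis 500 (0.622%). Upper-quartile scaling gave 3 for Polygalae 100 (13.2%), 1 for Aucklandiae 500 (4.97%) and 1 for Schisandrae 100 (1.36%). Depth scaling gave 6 for Aucklandiae 500 (7.4%), 2 for Aucklandiae 100 (2.42%), 1 for Aucklandiae 20 (4.11%), 1 for Schisandrae 100 (1.14%) and 0 for Schisandrae 500 against Liriopis 500 (0.299%), and DESeq2 size factors gave 1 for Schisandrae 100 (1.32%). The Polygalae slope from all 60 libraries gave 17 (17.2%). Upper-quartile scaling, depth scaling and the extract means were chosen after seeing the data.

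Leaving out single libraries gave 3 to 4 for Polygalae 500 (15.4% to 16.4% of all genes), 0 to 2 for Polygalae 100 (8.92% to 10.3%) and 5 to 26 for Polygalae 20 (3.71% to 19.1%). The counts were 0 to 1 for Aucklandiae 500 (2.37% to 3.8%), 0 to 1 for Aucklandiae 100 (0.55% to 1.43%) and 0 to 3 for Aucklandiae 20 (0.589% to 2.06%). They were 0 to 1 for Zizyphi 500, 0 to 1 for Zizyphi 20 and 0 to 4 for Schisandrae 100, with the shares of all genes not given. The ranges were 4 to 6 for Polygalae 500 against Aucklandiae 500 and 0 to 1 for Schisandrae 500 against Liriopis 500. They were 42 to 44 for Polygalae 500 against wortmannin and 1 to 3 for the Polygalae slope. For these last ranges too the shares of all genes are not given, so these counts are not read as a result about the members.

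Same-numbered replicates are not paired by the labels, and the 57 correlations of their deviations with those of the vehicle ran from -0.0424 to 0.0951. With the replicate number as a block, 43 members fell and 2 rose with wortmannin, 4 fell and 2 rose in Polygalae 500, and 1 passed in Aucklandiae 500 in place of 2. The shares of all genes in that fit are not given. Members of low level, such as PSMB8 and PSMB9, have standard errors above 0.1, so changes of 0.2 could not be resolved in them.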
